A study of Mus musculus with 4 samples.

Results

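The genes described here are 7 genes used as markers of unipolar brush cells, EOMES, LMX1A, CALB2, PLCB1, GRP, SLN and DGKG, chosen by name from the 30854 gene symbols of the Illumina MouseWG-6 v2.0 array, on which they have 12 probes. Symbols are given in capitals, as the array lists them. RNA came from the anterior and the posterior lobes of the cerebellum of untreated Swiss mice at postnatal day 7, dissected apart, giving 2 samples of each lobe, each hybridized to its own array. A probe is a short DNA sequence that matches a transcript, and its signal is the mean brightness of the beads that carry it. The labels give neither the number of animals behind a sample nor whether the samples came from separate animals, so p-values measure only the spread between these samples, which may be technical, and the lobes are whole dissections in which fewer cells of a type and less RNA per cell cannot be told apart.

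Unipolar brush cells are excitatory interneurons of the granular layer. They arise from the rhombic lip, as granule cells do, and their single short dendrite ends in a brush that receives a giant mossy fibre synapse. They are known to be most frequent in the vestibular lobules at the posterior end of the cerebellum, and one class of them contains calretinin. The paper behind these arrays stained them in the posterior lobes for Tbr2, the product of EOMES, to set them apart from granule neurons that contain Tlx3. The arrays address the question which genes differ between the anterior and posterior lobes at this age.

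Of the 7 genes, CALB2 and GRP were brighter on each posterior array than on either anterior array, by 1.29-fold to 1.44-fold, and DGKG was dimmer on both posterior arrays, by 1.21-fold. EOMES and LMX1A, the transcription factors that define the cells, and SLN overlapped between the lobes, and PLCB1 was too dim to be tested. Of the 12 probes, 7 probes of 6 genes were detected on at least 2 of the 4 arrays, and all 7 were detected on all 4. By limma, 4 of these 7 probes passed the criterion of the study's methods, more than 1.2-fold with a p below 0.05. The methods do not say whether that p was adjusted, and it was applied here without adjustment. Among the 4, 3 were higher and 1 was lower in the posterior lobes. Over all 21726 tested probes 8.29% passed it, 3.3% higher and 5% lower. The members' count is small, and a pair of the 4 probes belongs to the same gene, CALB2. No member passed an adjusted p under 0.05, which 0.106% of the tested probes did (adjusted p of the members between 0.127 and 0.781 by limma, 4 probes with an unadjusted p under 0.05, as 10.1% of the tested probes had). The median log2 difference, posterior minus anterior, was 0.19 over the 7 probes and 0.0023 over all tested probes. Single arrays moved these values. With 1 probe per gene the median over the 6 genes was 0.18, but it fell to -0.0051 when posterior replicate 1 was left out and to 0.056 when anterior replicate 1 was. It rose to 0.34 without posterior replicate 2 and to 0.30 without anterior replicate 2. Without either posterior array 2 member probes passed the criterion in place of 4.

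**Figure D1:**
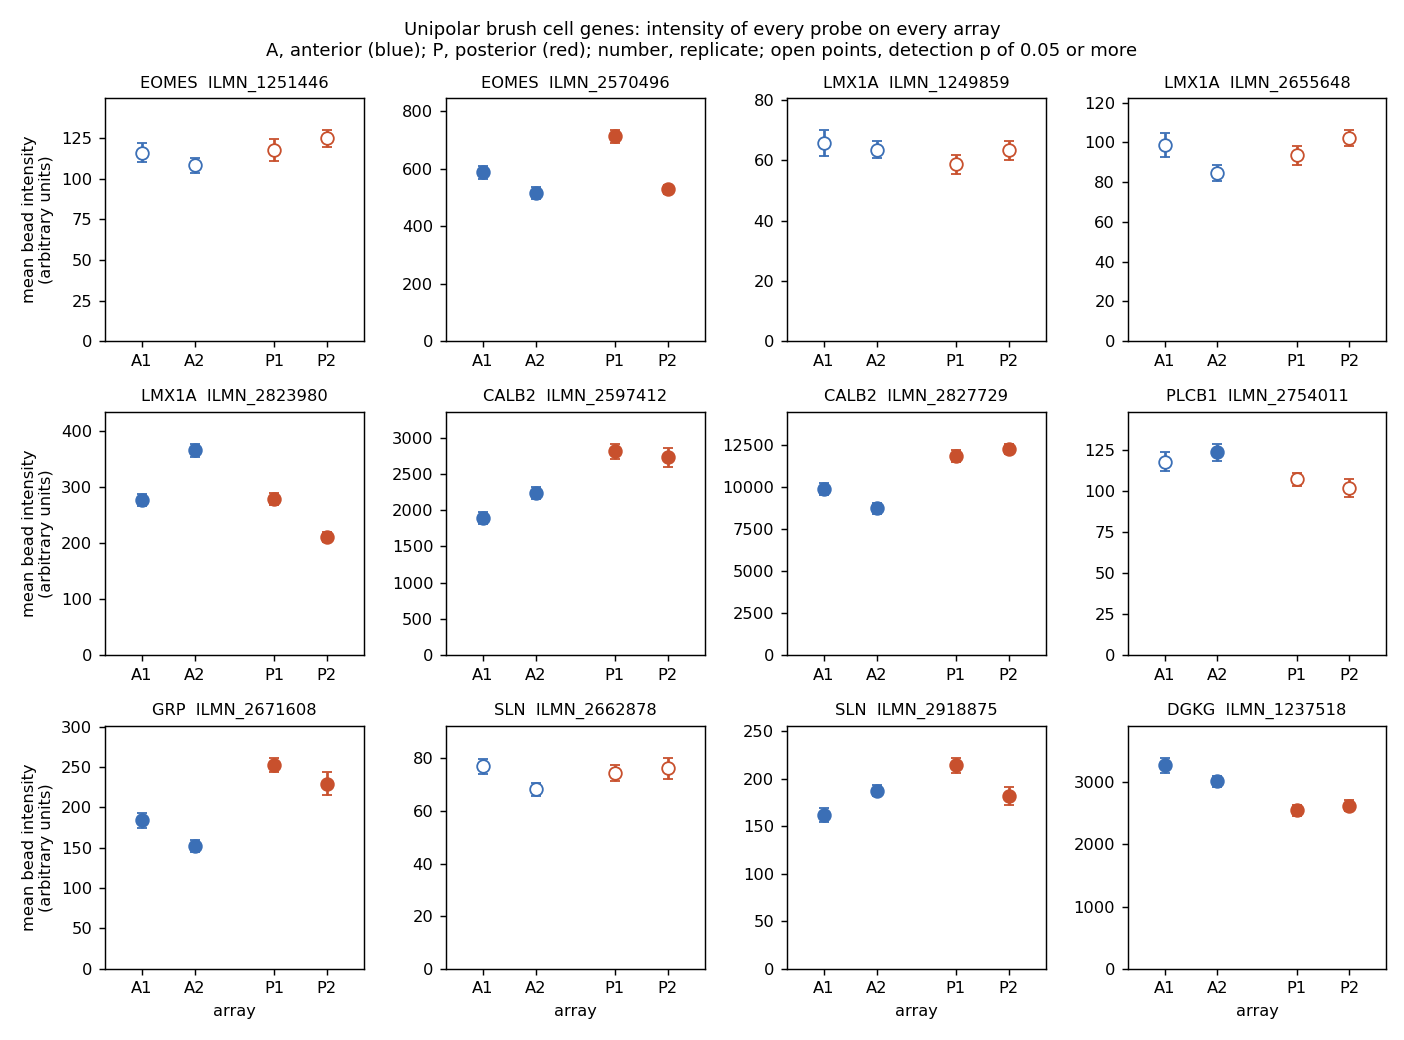
Intensity as deposited, in arbitrary units, of all 12 probes of the 7 genes on each array, with the standard error over the beads of the probe as bars. A1 and A2 are the anterior arrays (blue), P1 and P2 the posterior arrays (red), and open points have a detection p of 0.05 or more. Both posterior arrays lie above both anterior arrays for CALB2 (both probes) and GRP and below them for DGKG, while the filled points of EOMES, LMX1A and SLN overlap between the lobes.

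EOMES encodes the T-box transcription factor Tbr2, which unipolar brush cells need to form and which marks them from the rhombic lip onward. Its probe ILMN_2570496 had an intensity of 588.1 and 515.5 on the arrays of anterior replicates 1 and 2, and 712.5 and 528.9 on those of posterior replicates 1 and 2. Only the array of posterior replicate 1 was bright, and by deposited intensity that of posterior replicate 2 lay between the anterior arrays. After quantile normalization posterior replicate 2 lay below both, at a log2 level of 9.04 against 9.07 and 9.12. On the log2 scale after quantile normalization the anterior mean was 9.09 ± 0.034 and the posterior mean 9.28 ± 0.34 (SD, n = 2 arrays each). The log2 difference of 0.19 had a 95% confidence interval from -0.24 to 0.62 (adjusted p = 0.746 by limma). Leaving out posterior replicate 1 gave -0.049 and leaving out posterior replicate 2 gave 0.42, so its direction rested on 1 array. The posterior arrays differed from each other by 0.47 on the log2 scale, a gap reached by 1.84% of the tested probes, and their intensities differed by 6.69 times the combined standard error over beads. The anterior arrays differed by 0.048. A second EOMES probe, ILMN_1251446, was not detected on any array, with intensities between 108.3 and 124.9.

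The promoter of EOMES is shown because EOMES defines the cells. RefSeq windows from 250 bases before to 50 bases after a gene's start, on the mouse assembly GRCm38.p6, were at hand for 4 of the 7 genes, EOMES, LMX1A, PLCB1 and DGKG. The part of the EOMES window before the annotated gene is chr9:118477939-118478185 on the plus strand, and that of DGKG, the member that was lower in the posterior lobes, is chr16:22657303-22657481 on the minus strand. Both are written 5′ to 3′ in lower case, where capitals would mark a motif.
EOMES: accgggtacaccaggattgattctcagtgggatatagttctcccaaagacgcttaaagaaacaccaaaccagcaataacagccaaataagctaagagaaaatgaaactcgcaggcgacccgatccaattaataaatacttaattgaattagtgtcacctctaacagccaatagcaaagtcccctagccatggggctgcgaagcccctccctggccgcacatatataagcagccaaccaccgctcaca
DGKG: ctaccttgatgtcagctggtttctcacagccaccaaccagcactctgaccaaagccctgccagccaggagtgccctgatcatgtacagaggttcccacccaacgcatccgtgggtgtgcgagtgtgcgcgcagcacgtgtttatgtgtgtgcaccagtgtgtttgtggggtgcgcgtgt
The letters AGGTGT, the core of T-box sites, TAATCC, the core of sites of Otx factors, and TAATTA, a homeodomain core, were searched on both strands. None of the 4 windows holds any of them, against 13.7%, 7.06% and 5.29% of all 32851 windows, and this says only that these letters are not in these windows.

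LMX1A encodes a LIM homeodomain transcription factor of the roof plate and rhombic lip that stays on in unipolar brush cells. The intensity of its probe ILMN_2823980 was 277.4 and 366.2 on the anterior and 279.1 and 210.7 on the posterior arrays. Anterior replicate 2 was the brightest and posterior replicate 2 the dimmest, and the arrays of replicate 1 in the 2 lobes lay next to each other. On the log2 scale the anterior mean was 8.31 ± 0.46 and the posterior mean 7.92 ± 0.30 (SD, n = 2 arrays each). The log2 difference of -0.39 had a 95% confidence interval from -1.01 to 0.23 (adjusted p = 0.639 by limma). It was -0.71 without anterior replicate 1, where the adjusted p by limma was 0.0247, and -0.064 without anterior replicate 2. LMX1A had a wide spread within both lobes, 0.65 on the log2 scale between the anterior and 0.43 between the posterior arrays, gaps reached by 3.42% and 2.64% of the tested probes. These intensity gaps were 5.63 and 4.91 times their standard error over beads. After normalization the same array, anterior replicate 2, was brightest for all 4 tested genes of the choroid plexus. This epithelium derives from the roof plate and adjoins the cerebellum. TTR (ILMN_2443330), its transthyretin gene, had an intensity of 599.9 and 9501.9 on the anterior and 325.9 and 3777.6 on the posterior arrays. CLIC6 had log2 levels of 8.85 and 9.55 on the anterior and 8.08 and 8.54 on the posterior arrays, and ENPP2 of 11.59 and 11.63 and of 11.09 and 11.31. Both were past the 1.2-fold criterion and lower on each posterior array than on either anterior array. AQP1 had 6.94 and 7.91 on the anterior and 7.21 on both posterior arrays. As deposited, ENPP2 (ILMN_2954474) was instead brightest on anterior replicate 1, at 3323 against 2931.3 on anterior replicate 2, as were its dimmer probes. After normalization LMX1A was brightest on the same array as these genes, anterior replicate 2. It was dimmest on that of posterior replicate 2, where none of these genes was dimmest. The part of choroid plexus in the LMX1A signal was not tested. The other LMX1A probes, ILMN_1249859 and ILMN_2655648, were not detected on any array and give no fold.

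CALB2 encodes calretinin, a calcium buffer that marks one class of unipolar brush cells and is also made by granule cells. ILMN_2827729, the brighter of its probes, had an intensity of 9893.7 and 8736.2 on the anterior and 11846.3 and 12262.6 on the posterior arrays, so the lobes did not overlap. On the log2 scale the anterior mean was 13.19 ± 0.030 and the posterior mean 13.56 ± 0.0085 (SD, n = 2 arrays each), with the posterior arrays 0.012 apart. The posterior signal was 1.29-fold higher, a log2 difference of 0.37 with a standard error of 0.058 (unadjusted p = 0.000757, adjusted p = 0.127 by limma). Its adjusted p by limma was 0.00934 without anterior replicate 1 and 0.0325 without anterior replicate 2, and ranged up to 0.988 over the alternatives. The second probe, ILMN_2597412, had an intensity of 1898.9 and 2239.8 on the anterior and 2813.5 and 2731.4 on the posterior arrays. It did not overlap between the lobes either, but its anterior arrays lay farther apart. Log2 means of 11.00 ± 0.32 and 11.44 ± 0.074 differed by 0.44 (standard error 0.16, adjusted p = 0.44 by limma). The 2 probes of CALB2 thus had the same direction and a fold of 1.29 and 1.35. ILMN_2597412 did not pass the 1.2-fold criterion without anterior replicate 1, where its log2 difference was 0.21, or without either posterior array, and it passed the adjusted p without anterior replicate 2 (log2 difference 0.66, adjusted p = 0.00882 by limma).

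The genes of the granule cell lineage, which could also carry CALB2, gave the following values. Of 13 listed genes 11 were tested, 1 was past the criterion and higher in the posterior lobes (ZIC2, log2 difference 0.72) and 1 past it and lower (ETV1, log2 difference -0.64), and the median was -0.052. Their summed level, the sum of the normalized intensities of 1 probe per gene, was 88670 to 90940 on the anterior and 84520 to 86820 on the posterior arrays. This sum is weighted to the brightest genes of the list, and of the 11 tested genes 4 were higher and 7 lower in the posterior lobes. PAX6, present in granule cells and unipolar brush cells, had a log2 difference of 0.040 with a standard error of 0.13. Its probe ILMN_2504978 was dim, with an intensity of 197.9 and 147.3 on the anterior and 163.9 and 192.5 on the posterior arrays. The other PAX6 probe, ILMN_2612187, was not detected on any array. The part of granule cells in the CALB2 signal was not tested.

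GRP encodes gastrin-releasing peptide, a signalling peptide that acts through the receptor GRPR, which is coupled to Gq. Its only probe, ILMN_2671608, had an intensity of 183.8 and 152.0 on the anterior and 252.5 and 229.4 on the posterior arrays. All 4 arrays were above background, with detection p-values of at most 0.0107, and the lobes did not overlap. On the log2 scale the anterior mean was 7.40 ± 0.012 and the posterior mean 7.92 ± 0.11 (SD, n = 2 arrays each). With a log2 difference of 0.52 (standard error 0.11, 95% confidence interval from 0.245 to 0.797, unadjusted p = 0.00371, adjusted p = 0.25 by limma), a 1.44-fold higher posterior signal, GRP had the largest difference among the tested members over all 4 arrays. Its adjusted p by limma was 0.0353 without anterior replicate 1 and ranged up to 0.999 over the alternatives. After subtraction of a background estimated from the detection p-values, the log2 difference was 0.78. The probe of GRPR was not detected on any array.

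SLN encodes sarcolipin, a small membrane peptide that inhibits the calcium pump of the endoplasmic reticulum. ILMN_2918875 had an intensity of 162.4 and 187.7 on the anterior and 214.3 and 182.0 on the posterior arrays, and the lobes overlapped. Its log2 difference of 0.17 had a 95% confidence interval from -0.28 to 0.62 (adjusted p = 0.781 by limma). It was -0.054 without anterior replicate 1 and 0.39 without anterior replicate 2. A second probe, ILMN_2662878, was not detected on any array.

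PLCB1 and DGKG act in the pathway that follows metabotropic glutamate receptors, where phospholipase C splits a membrane lipid into diacylglycerol and a messenger that empties calcium stores, and diacylglycerol kinases remove the diacylglycerol. The probe of PLCB1, a phospholipase C (ILMN_2754011), had an intensity of 117.8 and 123.4 on the anterior and 107.0 and 101.8 on the posterior arrays. It was detected on the array of anterior replicate 2 alone, with a detection p of 0.0395, against values between 0.121 and 0.193 on the others, so it was not tested and gives no fold. DGKG encodes a diacylglycerol kinase that Purkinje cells also make. ILMN_1237518 had an intensity of 3269.5 and 3011.3 on the anterior and 2545.3 and 2619.8 on the posterior arrays, so both posterior arrays were dimmer than both anterior arrays. On the log2 scale the anterior mean was 11.61 ± 0.066 and the posterior mean 11.34 ± 0.019 (SD, n = 2 arrays each), which gave a log2 difference of -0.28 (standard error 0.080, unadjusted p = 0.0137, adjusted p = 0.363 by limma). This is just past the 1.2-fold limit. The adjusted p by limma was 0.0371 without anterior replicate 1. DGKG was no longer past the criterion without normalization (log2 difference -0.28, unadjusted p = 0.0756 by limma), with a shift to a common 75th percentile (log2 difference -0.25), or without anterior replicate 2 or either posterior array. Genes of Purkinje cells gave the following values beside it. Of 12 listed genes 9 were tested, each by its brightest tested probe. None was past the criterion, 7 were lower and 2 higher, and the median log2 difference was -0.11. PVALB, the listed gene with the lowest unadjusted p, had -0.25, while SLC1A6 was higher with 0.26. PRKCC, a protein kinase C of Purkinje cells, is not on this list but on that of calcium store signalling, and was named after its values were seen. It was past the criterion and lower, with a log2 difference of -1.53. Its anterior arrays lay at log2 levels of 9.68 and 10.93, and its adjusted p by limma was 0.338. The summed level of the Purkinje list was 83590 to 87170 on the anterior and 78010 to 78230 on the posterior arrays. This sum is weighted to the brightest genes of the list. The part of Purkinje cells in the DGKG signal was not tested.

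**Figure D2:**
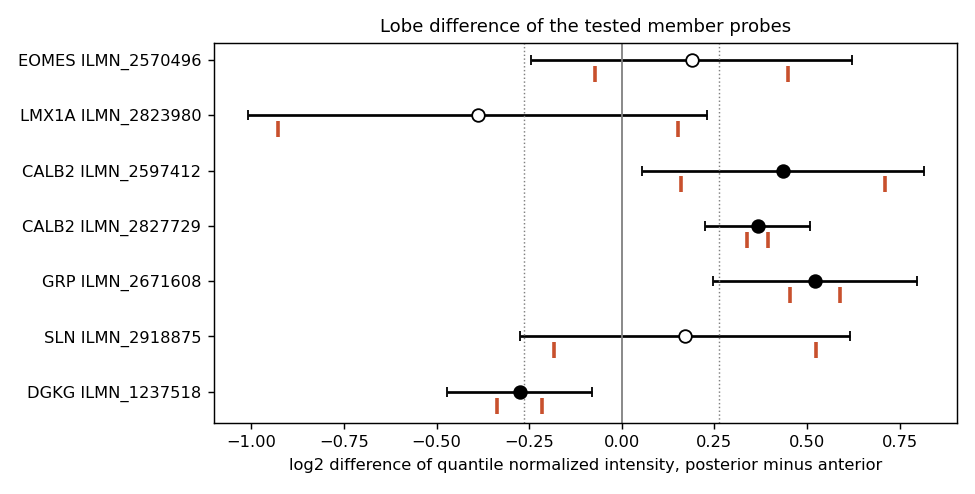
Log2 difference of quantile normalized intensity, posterior minus anterior, of the 7 tested member probes with the 95% confidence interval by limma (points and bars). Filled points passed the 1.2-fold criterion, dotted lines mark 1.2-fold, and red ticks give the difference between arrays of the same replicate number. The intervals of CALB2, GRP and DGKG lie on one side of 0, and those of EOMES, LMX1A and SLN span it.

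The arrays of the lobes did not overlap for 4 of the 7 tested member probes, 3 with posterior above anterior and 1 below. Over all tested probes 42.6% did not overlap, 21.1% with posterior above and 21.5% with posterior below. With 2 arrays per lobe the smallest two-sided p of an exact permutation test is 0.33. Between arrays of replicate 1 the log2 difference was 0.45 for EOMES, 0.15 for LMX1A and 0.53 for SLN, and between arrays of replicate 2 it was -0.072, -0.93 and -0.18. For these 3 genes the sign thus changed with the replicate number, while CALB2, GRP and DGKG kept it on both. The labels do not say that a number joins samples of the same animals.

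**Figure D3:**
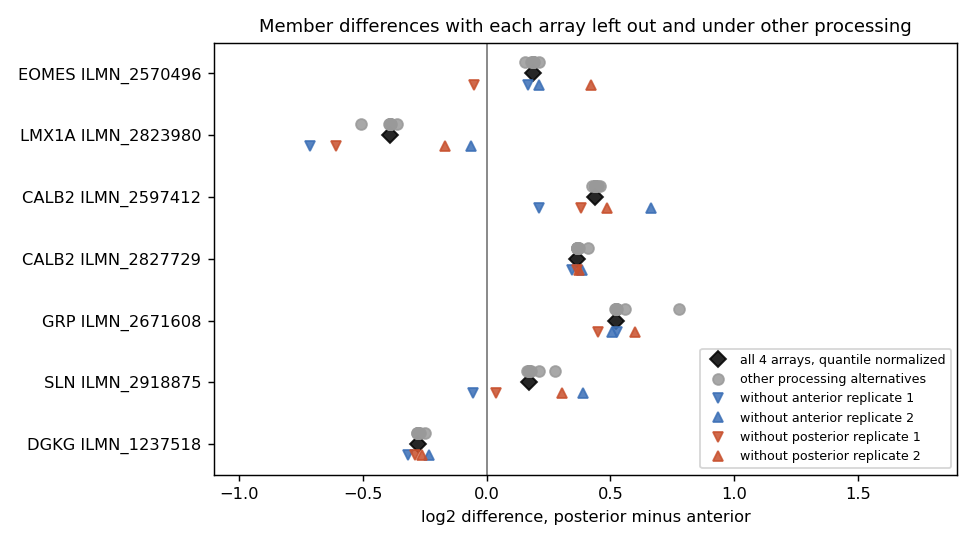
Log2 difference, posterior minus anterior, of each tested member probe over all 4 arrays (black diamonds), under the other processing alternatives (grey points) and with each array left out (triangles). ILMN_2827729 of CALB2 and the probe of GRP keep their place, at 0.35 to 0.38 and 0.45 to 0.60 with an array left out, while EOMES and SLN cross 0.

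CALB2 and GRP were thus past the criterion on one side and DGKG on the other, and the defining factors were not past it. ILMN_2827729 of CALB2 and the probe of GRP passed the 1.2-fold criterion in all 13 fits with another processing or with an array left out, against 10 for ILMN_2597412 of CALB2, 8 for DGKG, 1 for LMX1A, 1 for SLN and 0 for EOMES. The probes whose 4 signals ran closest to ILMN_2827729, the member with the lowest p, were those of TMED1, 4833427B12RIK, GLIPR2, BIRC5 and SLIT2, with a root mean square difference of 0.0041 to 0.017 on the log2 scale after each probe was centred on its mean. This is a likeness over 4 arrays among 21726 probes.

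Other genes known in unipolar brush cells, each by its brightest tested probe, did not separate the lobes by the criterion. Of 8 listed genes 7 were tested, none was past the criterion, 3 were higher and 4 lower, and the median log2 difference was -0.045. SLC17A6, the vesicular glutamate transporter VGLUT2, was closest, with log2 means of 13.45 ± 0.039 (anterior) and 13.71 ± 0.13 (posterior, SD over 2 arrays) and a log2 difference of 0.26 (standard error 0.078, adjusted p = 0.386 by limma). A second SLC17A6 probe, ILMN_2773047, had an intensity of 12097.6 and 9031.6 on the anterior and 13689.3 and 12353 on the posterior arrays. As deposited, the lobes did not overlap on it, and whether it passed the criterion is not reported here. SLC17A7, the transporter VGLUT1, was on the other side with -0.22. So was PLCB4, a phospholipase C of Purkinje cells and of some unipolar brush cells, with -0.25. The probes of GRM2, a metabotropic receptor of unipolar brush cells, were not detected on any array.

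Of 36 genes of Gq, diacylglycerol and calcium store signalling, a list that holds CALB2, PLCB1, GRP, SLN and DGKG too, 30 were tested. Each was counted by its brightest tested probe. Of these 3 were past the criterion and higher in the posterior lobes (CALB2, GRP and PRKCD) and 2 past it and lower (DGKG and PRKCC), with a median log2 difference of -0.097 over the 30. PRKCD, a protein kinase C, had a log2 difference of 0.68 (standard error 0.13, adjusted p = 0.201 by limma). PRKCC, the protein kinase C of Purkinje cells, was named after its values were seen and had -1.53 (standard error 0.42, adjusted p = 0.338 by limma), with anterior arrays at 9.68 and 10.93. None of the 30 passed the adjusted p (values for the 9 genes with an unadjusted p under 0.05 by limma between 0.127 and 0.462).

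Most markers of the labelled tissue were detected, with 11 of 13 granule cell genes and 9 of 12 Purkinje cell genes tested, but CALB1, a defining Purkinje cell gene, and ATOH1, that of granule cell progenitors, were not detected on any array. None of the Hox genes listed for the hindbrain outside the cerebellum was detected on enough arrays to be tested. Some markers of neighbouring tissue and of the rhombic lip differed between the lobes by the criterion. Of 7 meningeal genes 4 were past it and higher in the posterior lobes, with a summed level of 15430 to 17630 on the anterior and 25010 to 29960 on the posterior arrays. Of 4 tested choroid plexus genes 2 were past it and lower, with sums of 4212 to 14480 and 2929 to 6740, and FOLR1 and KL were not tested. Of 4 tested genes listed for the rhombic lip and roof plate, OTX2 and MSX1 were past it and higher. The others, EOMES and LMX1A themselves, were not past it. The paper names Otx2 among genes with compartmentalized expression in the cerebellum. Of 9 oligodendrocyte genes 8 were past the criterion and lower, and of 3 tested inhibitory interneuron genes none was past it. The part of these cells in the members' values was not tested.

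**Figure D4:**
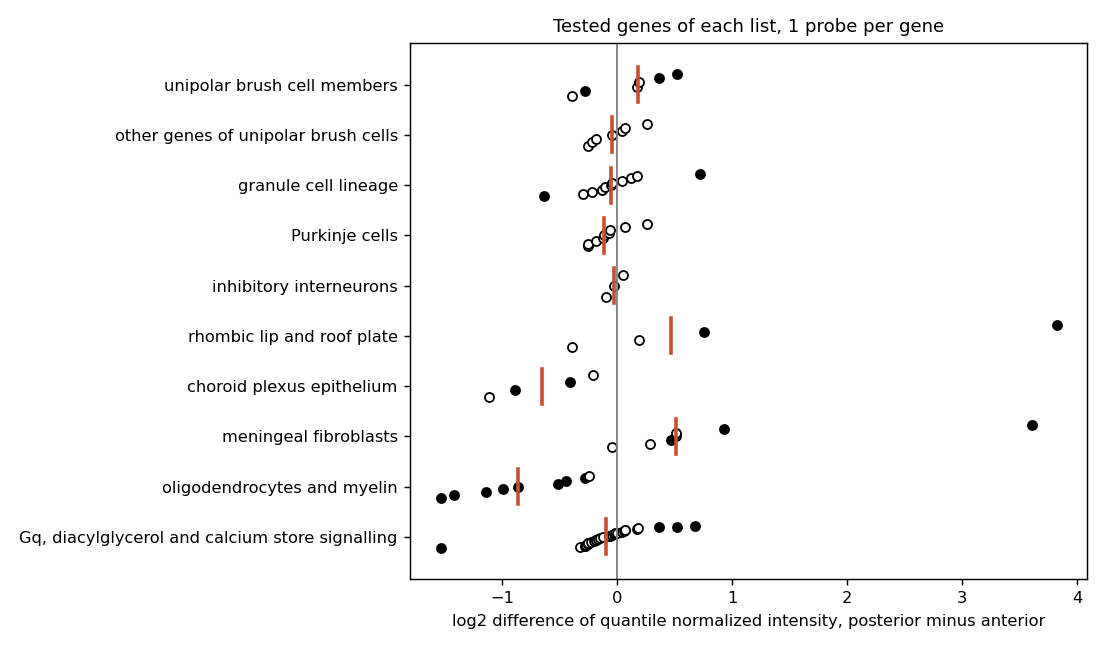
Log2 difference, posterior minus anterior, of the tested genes of each list shown, 1 probe per gene, with filled points past the 1.2-fold criterion and a red bar at the median of the list. The members lie on both sides of 0 with a median of 0.18 over 6 genes, and the other unipolar brush cell genes have a median of -0.045.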

How the data were processed

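The authors deposited 1 table for all 4 arrays, written by GenomeStudio 1.9.0 with its normalization switched off: the mean bead intensity of 45281 probes, the SD over beads, the counts of beads (23 to 62 for the members) and a detection score, a fraction that is 1 minus the detection p-value. The arrays had medians of 110.2 to 129.6 and 46.5% to 47.6% of probes detected (p under 0.05). Their number limits the precision. The floor of 1 and log base 2 of the study's methods were applied here. A further 16 columns were not used.

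Intensities were quantile normalized and log2 transformed in R 4.3.3. Probes detected on at least 2 arrays were fitted with limma 3.58.1 (lmFit, eBayes with an intensity trend, Benjamini-Hochberg over 21726 probes). The fit was also run on simulated data, with noise independent between arrays and of the same size in both lobes. That setting leaves out the correlation of replicate gaps between the lobes (r = 0.458), so it does not check the fit under it. Within-lobe log2 gaps had an SD of 0.318 (anterior) and 0.203 (posterior). Array columns were matched to samples by the sample numbers in the labels.

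The members and lists were chosen with earlier results of these data known. All member probes are named, and of each other list at most 4 genes, those with the lowest unadjusted p, and genes given as a marker value beside a member. List medians, sums and counts past the criterion use the brightest tested probe per gene, and other probes of a gene can differ. Probes were matched by array symbol. RefSeq sequences are of GRCm38.p6. Results of some list genes are not reported here.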

Additional observations from a re-analysis of the deposited data

How the results depend on the processing

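The alternatives were no normalization, a common 75th percentile, cyclic loess, neqc with an offset of 16, every probe kept, only probes detected on all 4 arrays, a stricter detection p of 0.01, no intensity trend, the replicate number as a block, each array left out, and 1.5-fold. They gave 0 member probes past the adjusted p by limma (between 2 and 4 with an unadjusted p under 0.05), except with the block or an anterior array left out. At 1.5-fold 0 member probes and 389 of all tested probes passed the criterion. Over all tested probes the adjusted p was passed by 23, by 123 without normalization, 73 without a filter and 13 without the trend.

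With the replicate block 2 member probes passed the adjusted p by limma, ILMN_2827729 of CALB2 (log2 difference 0.37, adjusted p = 0.0188) and that of GRP (0.52, adjusted p = 0.0453), as 588 of all tested probes did, and 2818 passed the 1.2-fold criterion against 1802. Across probes, which are not independent, the gap from replicate 2 to replicate 1 in one lobe correlated with that in the other at r = 0.458, and the labels do not pair the samples.

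Leaving out an array, the log2 difference ran from 0.35 to 0.38 for ILMN_2827729 and 0.21 to 0.66 for ILMN_2597412 of CALB2, 0.45 to 0.60 for GRP, -0.32 to -0.23 for DGKG, -0.71 to -0.064 for LMX1A, -0.049 to 0.42 for EOMES and -0.054 to 0.39 for SLN. The negative values of EOMES, without posterior replicate 1, and of SLN, without anterior replicate 1, are against the direction over all 4 arrays. Between 2 and 4 member probes passed the criterion, 2 without either posterior array, and 0 to 4 the adjusted p, 4 without anterior replicate 1 (CALB2, GRP, DGKG and LMX1A), 2 without anterior replicate 2, and 0 when a posterior array was left out (2 with an unadjusted p under 0.05 by limma). Over all tested probes 766 to 4677 passed the criterion and 0 to 2538 the adjusted p, 0 without either posterior array (785 and 825 with an unadjusted p under 0.05), 221 without anterior replicate 2 and 2538 without anterior replicate 1. The lone array is then assumed to vary like the other lobe, by construction of the fit. The median of the members, 0.18, ran from -0.0051 to 0.34.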
